A study of Homo sapiens with 24 samples.

Results

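Interferon-stimulated genes are the genes that cells switch on when interferon tells them that a virus is near, and 46 of them were followed here in A375 cells, which are a long-established line from a human melanoma. The 46 members were taken by gene symbol (DDX58 is also written RIGI) and all 46 were found in both tables of the series, which hold 28008 genes in batch 1 and 60221 in batch 2. Every group was A375 transfected with a pcDNA3.1 plasmid that carries a CAG promoter and puromycin resistance, then kept for 48 h in 2 µg/mL puromycin. The empty vector controls therefore received plasmid, transfection reagent and puromycin as well, and untransfected cells were not analysed here. In each batch 3 libraries carried the plasmid without an insert (empty vector) and 3 carried full-length SLNCR (FL), a long noncoding RNA linked with melanoma invasion. Some libraries carried SLNCR lacking 1 of its TFRs, the parts thought to form a triple helix with DNA, and the design asks which genes these parts regulate. Batch 1 had 3 libraries each of ΔTFR1, lacking TFR 1, and of ΔTFR2, lacking TFR 2. Batch 2 had 3 each of ΔTFR4, lacking TFR 4, and of ΔTFR5, lacking TFR 5. The labels call the replicates biological and do not say whether they came from separate cultures, so the p-values measure the spread between these libraries.

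Type I interferons bind a receptor on the cell surface whose kinases JAK1 and TYK2 phosphorylate STAT proteins. STAT2 then joins IRF9 in a complex that binds the interferon-stimulated response element, a repeat of the letters GAAA in the promoters of these genes. Their products include sensors of viral RNA, enzymes that degrade RNA, proteins that block translation of viral messages, and the ubiquitin-like modifier ISG15. Many tumour cell lines keep a low, steady expression of these genes without added interferon.

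Promoter windows from RefSeq, which held the 250 bases before each transcript start, were at hand for 37 of the 46 members, with 48 windows in all because some genes have more than 1 start. No window was listed for IFIT2, MX2, OAS2, DHX58, TRIM22, OASL, SLFN5, IRF7 and USP18. The core of the response element (GAAANNGAAA, either strand) was found in 24 of the 37 members, or 64.9%, against 3.71% of all 27305 genes with a window. The gamma-activated site (TTCNNNGAA, which reads the same on both strands) was found in 12 of the 37, or 32.4%, against 8.09% of all genes. A match is a description of the letters and not evidence of binding.

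The 6 members with a core match and the lowest adjusted p in any comparison below are shown because most of them recur in the results. They are written in the direction of transcription, cut around the match, and end before the RefSeq start. The coordinates refer to GRCh38.p14. Capitals mark the core, read as GAAA or as its reverse complement.
OAS3, chr12:112938311-112938360, plus strand: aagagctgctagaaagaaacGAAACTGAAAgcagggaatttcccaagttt
SAMD9, chr7:93118086-93118135, minus strand: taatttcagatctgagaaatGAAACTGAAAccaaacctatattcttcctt
IFIT1, chr10:89392487-89392549, plus strand: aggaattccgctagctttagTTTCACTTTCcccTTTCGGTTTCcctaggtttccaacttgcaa
IFIT3, chr10:89327821-89327904, plus strand: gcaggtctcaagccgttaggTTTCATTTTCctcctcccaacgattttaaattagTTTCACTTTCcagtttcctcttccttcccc
HERC5, chr4:88456974-88457074, plus strand: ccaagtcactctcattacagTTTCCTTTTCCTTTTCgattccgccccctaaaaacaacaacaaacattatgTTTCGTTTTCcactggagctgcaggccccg
IFI6, chr1:27672319-27672368, minus strand: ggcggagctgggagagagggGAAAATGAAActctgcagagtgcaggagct
IFIT1 and IFIT3 each hold 2 matches in the stretch shown and HERC5 holds 3, of which the leading pair overlap, while OAS3, SAMD9 and IFI6 hold 1. In OAS3 and SAMD9 the match has the same letters and starts 143 and 136 bases before the RefSeq start. GENCODE, used below, places the starts of both genes elsewhere, that of OAS3 within the stretch shown, so these distances hold for RefSeq only.

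Several members lie side by side in the genome (GENCODE v29, GRCh38). OAS1, OAS3 and OAS2 follow each other on chromosome 12 with 5129 and 5145 bases between them, and OAS3 spans chr12:112938352-112973249. IFIT2, IFIT3, IFIT1 and IFIT5 follow each other on chromosome 10, and IFIT1 spans chr10:89392546-89406486. SLFN5 lies at chr17:35243036-35273655 and TRIM22 at chr11:5689689-5737089. CMPK2 and RSAD2 overlap by 830 bases on opposite strands, and PARP9 and DTX3L by 340. The strand setting of the counting is not given in the sources used here, so counts of these 2 pairs could be shared between their members.

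Totals ran from 8627449 to 10789211 counts per library in batch 1 and from 24810090 to 33063293 in batch 2. SLNCR was raised in every library that received it: batch 1 held 18.9 to 20.8 CPM (counts scaled to the library's total) with empty vector and 165 to 240 with a construct, and batch 2 held 27.9 to 30.1 and 192 to 728. The labels give the cell type as epithelial, yet the 6 epithelial markers (EPCAM, CDH1, KRT5, KRT14, KRT19, CLDN7) summed to 0.923 to 2.07 CPM in batch 1 and 1.64 to 17.5 in batch 2. Of 6 melanocyte genes MITF lay at 74.4 to 101 CPM in batch 1 and 55.8 to 198 in batch 2, and the others were scarce. PMEL, MLANA and DCT held at most 1.9, 2.99 and 0.765 CPM in batch 1 and at most 1.02, 1.64 and 0.33 in batch 2. TYR and S100B were at 0 in batch 1 and held at most 0.0795 and 0.828 CPM in batch 2. Leukocyte markers (4 genes) summed to at most 1.62 CPM in batch 1 and 5.8 in batch 2.

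4 libraries of batch 2 stood apart. FL replicate 3 held SLNCR at 334 CPM, against 728 and 658 in FL replicates 1 and 2. FL replicate 1 had the steepest loss of GC-rich transcripts of its batch (a GC trend of -1.01, against -0.09 to 0.24 in the other 11 libraries), and it held the leukocyte gene PTPRC at 2.79 CPM, against at most 0.114 elsewhere. Empty vector replicates 1 and 2 held the epithelial keratin KRT19 at 5.85 CPM each, against 0.151 in replicate 3, and their epithelial markers summed to 16.4 and 17.5 CPM, against 5.98. FL replicate 2 came next, with a sum of 12.1 CPM and the highest KRT5 (5.31) and KRT14 (4.72) of the batch. Results that rest on the 4 libraries are given below with and without them. In bulk RNA, fewer cells that express a gene and less RNA per cell cannot be told apart.

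With empty vector the genes were expressed at a wide range of steady levels. Per kilobase of transcript, the secreted glycoprotein LGALS3BP was the most abundant, at 191 ± 7.46 CPM per kb (SD, n = 3) in batch 1 and 231 ± 9.15 in batch 2. IFITM3, which keeps viruses from leaving endosomes, followed at 152 ± 6.01 and 196 ± 12.8, and both gaps exceed the spread between libraries. OAS3, which makes the oligoadenylates that activate RNase L, was the third in both batches, at 17.9 ± 0.183 and 23.9 ± 0.392 CPM per kb. In batch 1 MX2 (17 ± 0.448) and IFIT5 (16.6 ± 0.9) came next and did not differ beyond their spread. In batch 2 DTX3L (21.2 ± 1.04) and STAT2 (18.4 ± 0.258) came next. The same 6 genes (BST2, RSAD2, IFI27, XAF1, EPSTI1 and CXCL10) held ranks 41 to 46 in both batches.

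Those 6 were at the edge of detection. CXCL10, a chemokine that draws T cells, had 0 counts in all 12 libraries of batch 1 and at most 8 counts in a library of batch 2. EPSTI1 had at most 1 count per library in batch 1 and at most 14 in batch 2. CXCL10, IFI27, EPSTI1, BST2, XAF1 and RSAD2 were not tested in batch 1, which left 40 members, and CXCL10 and EPSTI1 were not tested in batch 2, which left 44. A filter on low counts set this, so the members that were tested are those with enough reads in at least 1 group.

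**Figure D1:**
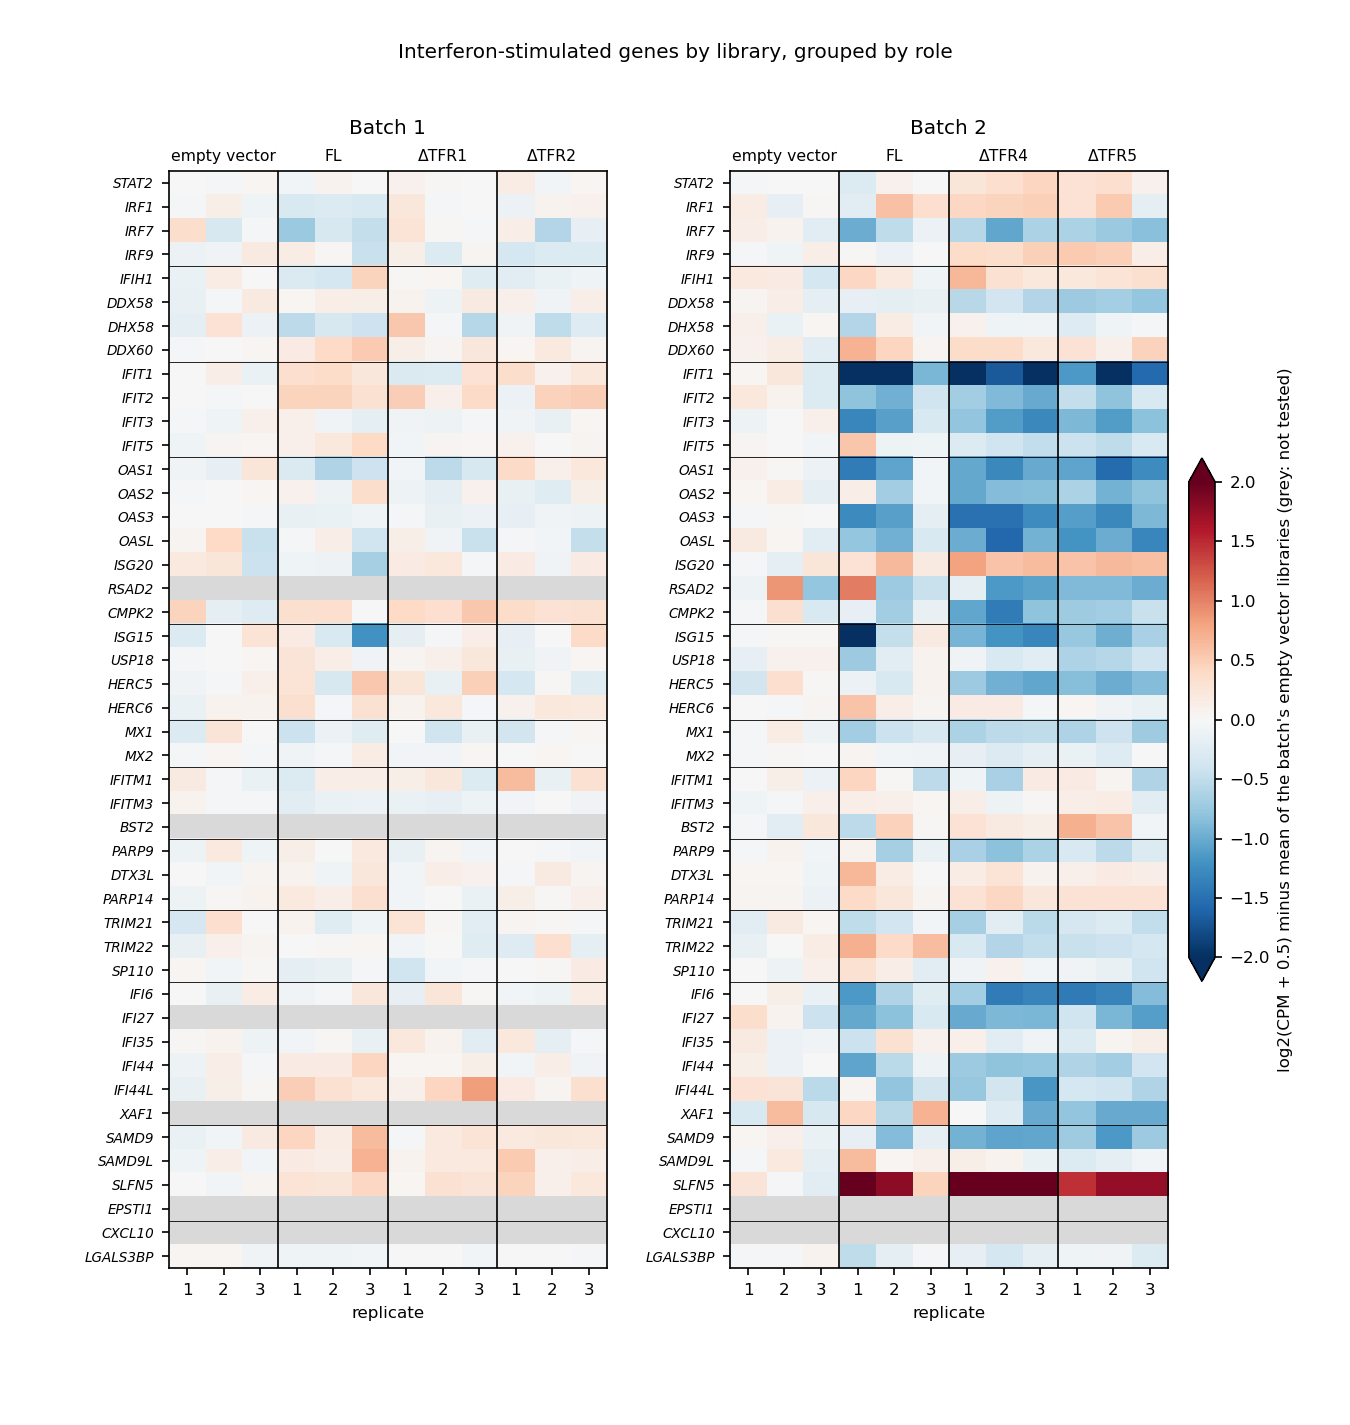
Level of each member in each library as log2(CPM + 0.5) minus the mean of its batch's 3 empty vector libraries, with rows grouped by role and grey for members not tested. Colours stop at 2 in either direction. In batch 2 the ΔTFR4 and ΔTFR5 columns are blue for OAS3, IFIT1 and IFI6 and red for SLFN5, and FL replicate 3 is paler than FL replicates 1 and 2 for OAS3 and IFIT1.

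In batch 2 the clearest difference was that many antiviral effectors were lower in cells with a deleted SLNCR than with empty vector, while SLFN5 and ISG20 were higher. With ΔTFR4, 18 of the 44 tested members fell and 2 rose, and 24 did not pass edgeR's quasi-likelihood test (adjusted p under 0.05 over all genes). Of all 18763 genes tested, 11.4% fell and 12.5% rose in that comparison, against 40.9% and 4.55% of the members. With ΔTFR5, 11 of 44 fell and 2 rose, against 4.68% and 5.48% of all genes. The median log2 fold change of the members was -0.50 for ΔTFR4 and -0.43 for ΔTFR5, against 0.02 over all genes in both. The 2 comparisons share the empty vector libraries, so their values stand side by side below and are not independent.

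**Figure D2:**
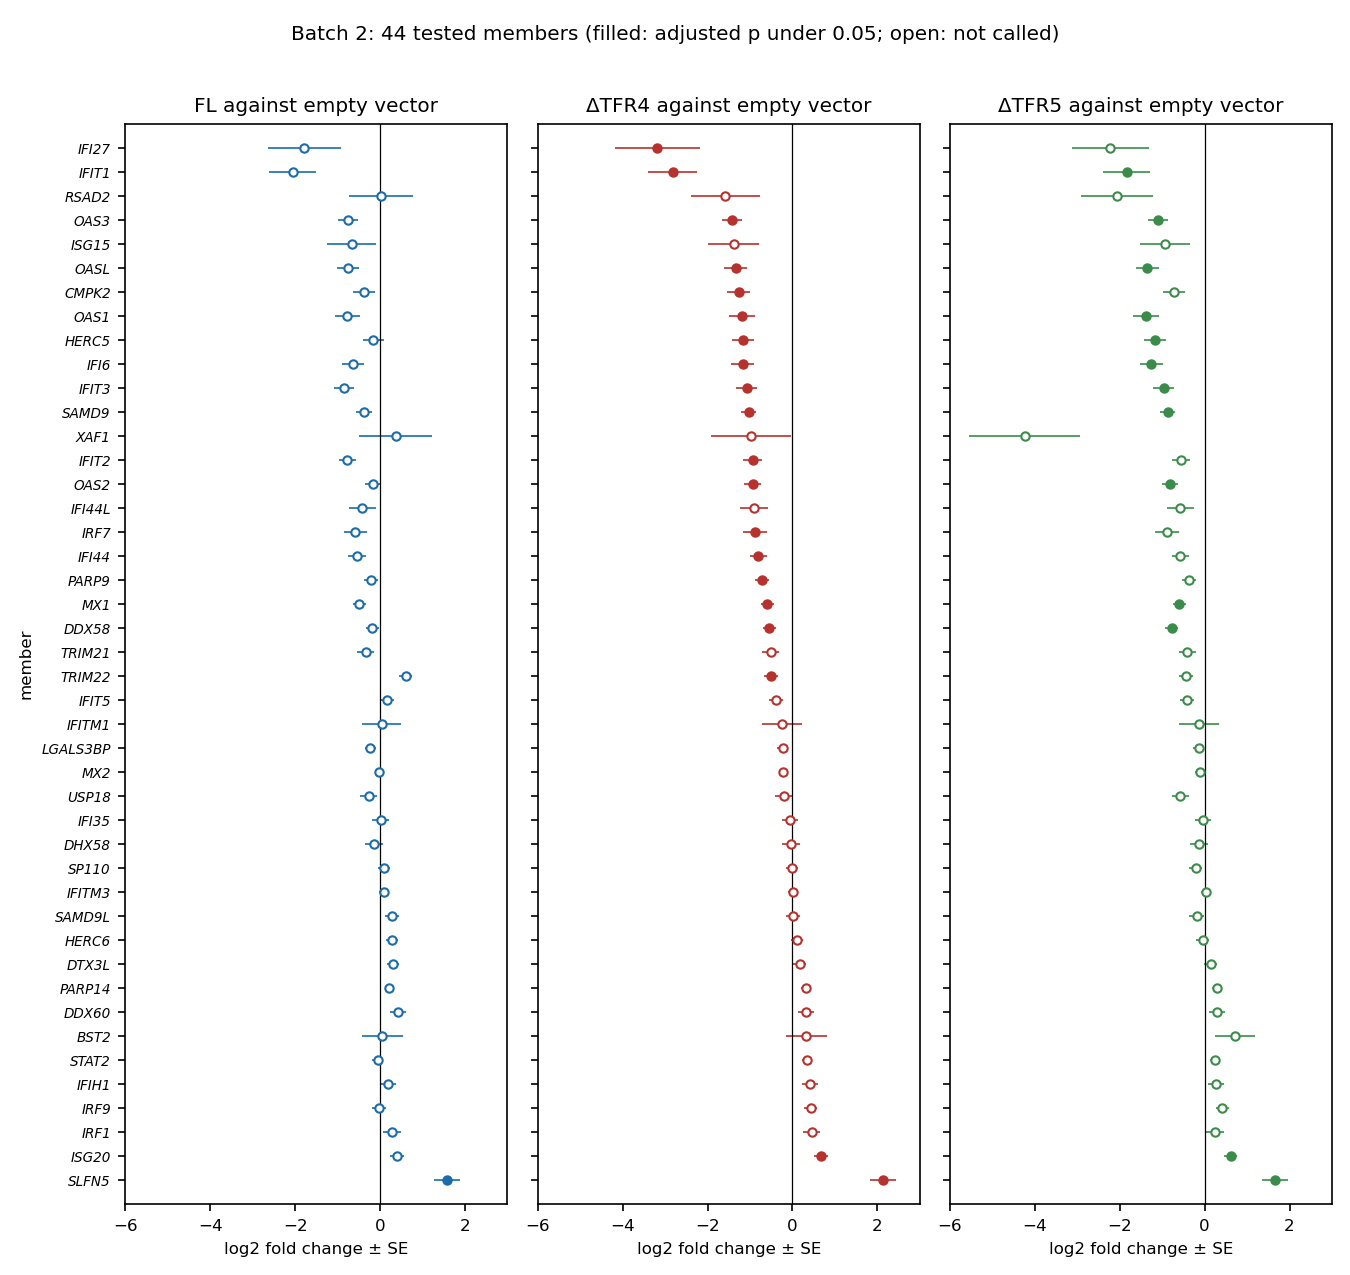
Log2 fold change ± SE against empty vector in batch 2 for the 44 tested members, ordered by ΔTFR4, with 3 libraries per group and filled points at an adjusted p under 0.05. IFIT1 and OAS3 lie left of 0 in all 3 panels, SLFN5 lies right of 0 in all 3, and the FL panel has 1 filled point.

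The IFIT proteins bind viral RNA and block its translation. IFIT1 lay at 5.67, 6.49 and 4.46 CPM with empty vector, at 0.386, 1.36 and 0.595 with ΔTFR4, and at 2.19, 0.926 and 1.54 with ΔTFR5. Every deletion library was below every empty vector library. IFIT1 fell by 2.82 ± 0.58 on the log2 scale (SE; adjusted p = 0.00499), or 7.06-fold, with ΔTFR4. With ΔTFR5 its log2 fold change was -1.84 ± 0.55 (adjusted p = 0.0499).

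IFIT3, which stabilises IFIT1 on RNA, lay at 19.2, 20.7 and 22.2 CPM with empty vector, at 11.8, 9.29 and 8.18 with ΔTFR4 and at 10.9, 9.26 and 11.5 with ΔTFR5. It fell by 1.08 ± 0.24 (adjusted p = 0.00679) and by 0.97 ± 0.24 (0.0229). The groups did not overlap. IFIT2 lay at 11, 9.94 and 7.68 CPM with empty vector and at 5.64, 4.87 and 4.42 with ΔTFR4, and fell by 0.94 ± 0.22 (adjusted p = 0.00851). With ΔTFR5 IFIT2 lay at 6.68, 5.2 and 7.57 CPM and did not pass (-0.56 ± 0.21, adjusted p = 0.114). IFIT5, the fourth of the family, did not pass either (-0.39 ± 0.16 and -0.41 ± 0.16, adjusted p = 0.0965 and 0.119). Its ΔTFR4 libraries, at 45 to 52.3 CPM, nevertheless lay below its empty vector libraries, at 60.7 to 65.7.

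Of the 7 genes for OAS proteins and enzymes that act on RNA or nucleotides, 5 fell and 1 rose with ΔTFR4, and 4 fell and 1 rose with ΔTFR5. OAS3 was the most even of them: 158, 163 and 161 CPM with empty vector, 56.7, 56.7 and 67 with ΔTFR4, and 74.9, 65.2 and 85.5 with ΔTFR5. It fell by 1.42 ± 0.23 (adjusted p = 0.0017), or 2.67-fold, and by 1.10 ± 0.23 (adjusted p = 0.0114), or 2.14-fold. The 3 empty vector libraries lay close together and above every deletion library.

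OAS1 lay at 10.6, 10.1 and 9.08 CPM with empty vector, at 4.6, 3.74 and 4.68 with ΔTFR4 and at 4.49, 3.1 and 3.84 with ΔTFR5. It fell by 1.19 ± 0.30 (adjusted p = 0.014) and by 1.38 ± 0.31 (0.0159). OAS2 lay at 30.3, 32.4 and 25.7 CPM, at 14.2, 15.9 and 16, and at 18.8, 15 and 16.5 in the same groups. OAS2 fell by 0.94 ± 0.19 (adjusted p = 0.00463) and by 0.82 ± 0.19 (0.0184). OASL, which resembles the OAS enzymes but makes no oligoadenylate, went from 4.96 ± 0.743 CPM (SD, n = 3) to 1.96 ± 0.55 and 1.94 ± 0.281. It fell by 1.34 ± 0.27 (adjusted p = 0.00459) and by 1.35 ± 0.27 (0.0101).

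CMPK2, a mitochondrial nucleotide kinase, lay at 4.51, 5.89 and 3.63 CPM with empty vector and at 1.97, 1.44 and 2.42 with ΔTFR4, and fell by 1.27 ± 0.27 (adjusted p = 0.00552). With ΔTFR5 it lay at 2.62 to 3.24 CPM and did not pass (adjusted p = 0.097). RSAD2, an enzyme that makes a chain-terminating nucleotide, varied within empty vector from 0.341 to 2.15 CPM and passed in neither comparison (log2 fold change -1.58 ± 0.82 and -2.06 ± 0.85, adjusted p = 0.182 and 0.143). ISG20, an exonuclease that degrades RNA, went the other way. It lay at 11.1, 10 and 13.6 CPM with empty vector, at 20.5, 17.2 and 18 with ΔTFR4 and at 17.3, 18.2 and 17.6 with ΔTFR5. ISG20 rose by 0.68 ± 0.16 (adjusted p = 0.00976) and by 0.61 ± 0.16 (0.0312).

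Of the 4 genes of ISG15 and its conjugation 1 passed. HERC5, the ligase that joins ISG15 to new proteins, lay at 2.15, 3.81 and 2.95 CPM with empty vector, at 1.55, 1.25 and 1.15 with ΔTFR4 and at 1.39, 1.21 and 1.36 with ΔTFR5. HERC5 fell by 1.17 ± 0.26 in both (adjusted p = 0.00735 and 0.0164). ISG15 itself went from 3.85 ± 0.0987 CPM to 1.48 ± 0.266 and 2.01 ± 0.278 without passing (log2 fold change -1.38 ± 0.60 and -0.93 ± 0.59, adjusted p = 0.112 and 0.336). FL replicate 1 held ISG15 at 0.24 CPM, against 2.62 and 4.4 in the other FL libraries. With the 2 groups of each comparison fitted alone, and so without any FL library, 30 of 42 and 23 of 41 members were called. Of all genes 51.9% and 32% were called there. The values of ISG15 in those fits are not given here. USP18, which removes ISG15, and HERC6 did not pass.

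MX1, a dynamin-like GTPase that traps viral ribonucleoproteins, lay at 17.5, 20 and 16.8 CPM with empty vector, at 11.4, 12.4 and 12.5 with ΔTFR4 and at 11.6, 13.4 and 10.8 with ΔTFR5. It fell by 0.59 ± 0.15 (adjusted p = 0.0126) and by 0.60 ± 0.15 (0.0226). MX2, at 57.9 to 73 CPM over the 12 libraries, passed in no comparison. Among the RNA sensors DDX58, which encodes RIG-I, lay at 9.87, 10.4 and 8.29 CPM with empty vector, at 6.26, 7.18 and 6.13 with ΔTFR4 and at 5.53, 5.74 and 5.31 with ΔTFR5. DDX58 fell by 0.54 ± 0.15 (adjusted p = 0.0179) and by 0.78 ± 0.15 (0.00772). The sensors IFIH1 and DDX60 had positive values that did not pass (0.41 ± 0.19 and 0.32 ± 0.18 with ΔTFR4, adjusted p = 0.149 and 0.215). DHX58 had -0.03 ± 0.21 (0.941).

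Among the transcription factors IRF7, which drives interferon genes, lay at 4.02, 3.84 and 3.06 CPM with empty vector and at 2.28, 1.51 and 2.16 with ΔTFR4. It fell by 0.88 ± 0.28 (adjusted p = 0.0361), and its value with ΔTFR5, -0.89 ± 0.28, did not pass (0.0603). The other 3 had positive values in ΔTFR4 that did not pass: 0.34 ± 0.12 for STAT2 (adjusted p = 0.054), 0.43 ± 0.16 for IRF9 (0.0699) and 0.45 ± 0.21 for IRF1 (0.133). STAT2 lay at 59.4, 60.9 and 60.8 CPM with empty vector and at 71.7, 76.2 and 81.7 with ΔTFR4, so its groups did not overlap.

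SAMD9, a restriction factor for poxviruses, lay at 63.7, 66.1 and 56 CPM with empty vector, at 31.8, 29.4 and 29.9 with ΔTFR4 and at 37.5, 27.5 and 37 with ΔTFR5. It fell by 1.03 ± 0.18 (adjusted p = 0.00244) and by 0.87 ± 0.18 (0.0119). Its neighbour SAMD9L, on the same strand 12031 bases away, had 0.02 ± 0.17 and -0.19 ± 0.17 (adjusted p = 0.951 and 0.533). SLFN5, of the Schlafen family, showed the largest rise among the members in both deletions. It lay at 82.1, 66.9 and 58.1 CPM with empty vector, at 292, 328 and 295 with ΔTFR4 and at 189, 232 and 232 with ΔTFR5. SLFN5 rose by 2.14 ± 0.30 (adjusted p = 0.000898), or 4.42-fold, and by 1.66 ± 0.30 (0.00645), or 3.15-fold.

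Of the 6 genes in the group of IFI genes and XAF1, 3 fell with ΔTFR4 and 1 with ΔTFR5. IFI6, a small protein that protects infected cells from death, lay at 13.5, 14.5 and 12.2 CPM with empty vector, at 8.07, 4.76 and 4.98 with ΔTFR4 and at 4.69, 4.99 and 7.12 with ΔTFR5. It fell by 1.17 ± 0.27 (adjusted p = 0.00785) and by 1.26 ± 0.27 (0.0125). IFI44 lay at 17.6, 15 and 16.2 CPM with empty vector and at 9.62, 9.1 and 9.29 with ΔTFR4, and fell by 0.80 ± 0.21 (adjusted p = 0.0151). With ΔTFR5 IFI44 lay at 10.5, 9.87 and 12.4 CPM and did not pass (-0.57 ± 0.21, adjusted p = 0.0968).

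IFI27, a mitochondrial protein, was scarce: 28, 18 and 8 counts with empty vector, and 1, 2 and 2 with ΔTFR4. Its fitted log2 fold change was -3.18 ± 1.00 (adjusted p = 0.0351), which at so few counts is imprecise. With ΔTFR5 IFI27 had 8, 2 and 0 counts and did not pass (-2.22 ± 0.91, adjusted p = 0.139). XAF1, a partner of the apoptosis inhibitor XIAP, had 10, 30 and 8 counts with empty vector, 13, 9 and 0 with ΔTFR4 and 2, 0 and 0 with ΔTFR5. It did not pass against empty vector (adjusted p = 0.48 and 0.057), and no fold is given on 2 counts. IFI35, at 13.4 to 22.7 CPM over the batch, and IFI44L, at 1.52 to 5.04, did not pass.

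PARP9, which forms a complex with the ubiquitin ligase DTX3L, lay at 36.8, 39.3 and 36.1 CPM with empty vector and at 23.7, 20.9 and 24 with ΔTFR4. It fell by 0.71 ± 0.17 (adjusted p = 0.00981). With ΔTFR5 PARP9 lay at 30.1, 25.9 and 30.8 CPM (-0.37 ± 0.17, adjusted p = 0.179). Its partner DTX3L had 0.17 ± 0.15 and 0.14 ± 0.15 (adjusted p = 0.447 and 0.604), and PARP14 had 0.31 ± 0.11 and 0.29 ± 0.11 (0.0637 and 0.121). TRIM22, an antiviral ubiquitin ligase, fell by 0.50 ± 0.16 with ΔTFR4 (adjusted p = 0.0411), from 6.41, 7.16 and 8.02 CPM to 5.72, 4.61 and 4.94. TRIM21 and SP110 did not pass, nor did the membrane proteins IFITM1, IFITM3 and BST2 or the secreted LGALS3BP.

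The most abundant members, IFITM3 and LGALS3BP, passed in no comparison of batch 2. IFITM3 lay at 150, 156 and 170 CPM with empty vector, at 173, 148 and 161 with ΔTFR4 and at 174, 176 and 135 with ΔTFR5. LGALS3BP lay at 541, 543 and 580 CPM, at 497, 436 and 490, and at 522, 530 and 461 in the same groups.

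In batch 2, members with a core match in their window had a median log2 fold change of -0.75 with ΔTFR4 (22 tested, 10 fell and 1 rose). Those with a window and no match had -0.01 (13 tested, 3 fell and 0 rose by edgeR), and those without a window had -0.50 (9 tested, 5 fell and 1 rose). With ΔTFR5 the 3 medians were -0.57, -0.19 and -0.56. These splits are a description of the members and were not tested.

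For ΔTFR4 against empty vector, leaving out each library in turn left 14 to 18 members called, or 31.8 to 40.9%, where 11.9 to 15% of all genes were. Of the members, 12 of the 20 passed in every such fit: IFIT1, IFIT2, IFIT3, OAS2, OAS3, OASL, CMPK2, HERC5, PARP9, IFI6, SAMD9 and SLFN5. For ΔTFR5 the range was 3 to 10, or 6.82 to 22.7%, where 2.27 to 8.96% of all genes were called, and 2 of its 13 passed in every such fit, DDX58 and SLFN5. IRF7, TRIM22 and IFI27 with ΔTFR4, and IFIT1 and MX1 with ΔTFR5, lost their calls in every such fit. For ΔTFR5 the lowest count, 3, came without ΔTFR5 replicate 2, and it was 4 without empty vector replicate 1 or 2, 5 without ΔTFR5 replicate 1 and 8 without empty vector replicate 3.

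With empty vector replicates 1 and 2 both left out, 1 control library remains and is assumed to vary like the other groups. Its own spread cannot be measured, so this fit cannot decide whether the calls hold, and members called are not counted from it. The members' median was then -0.30 with ΔTFR4 and -0.33 with ΔTFR5, against 0.03 over all genes in both. OAS3 had -1.43 ± 0.34 and SLFN5 2.38 ± 0.50 with ΔTFR4. Empty vector replicate 3, with little KRT19, held OAS3 at 161 CPM, IFIT1 at 4.46 and SLFN5 at 58.1. The other controls held 158 and 163, 5.67 and 6.49, and 82.1 and 66.9 CPM.

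**Figure D3:**
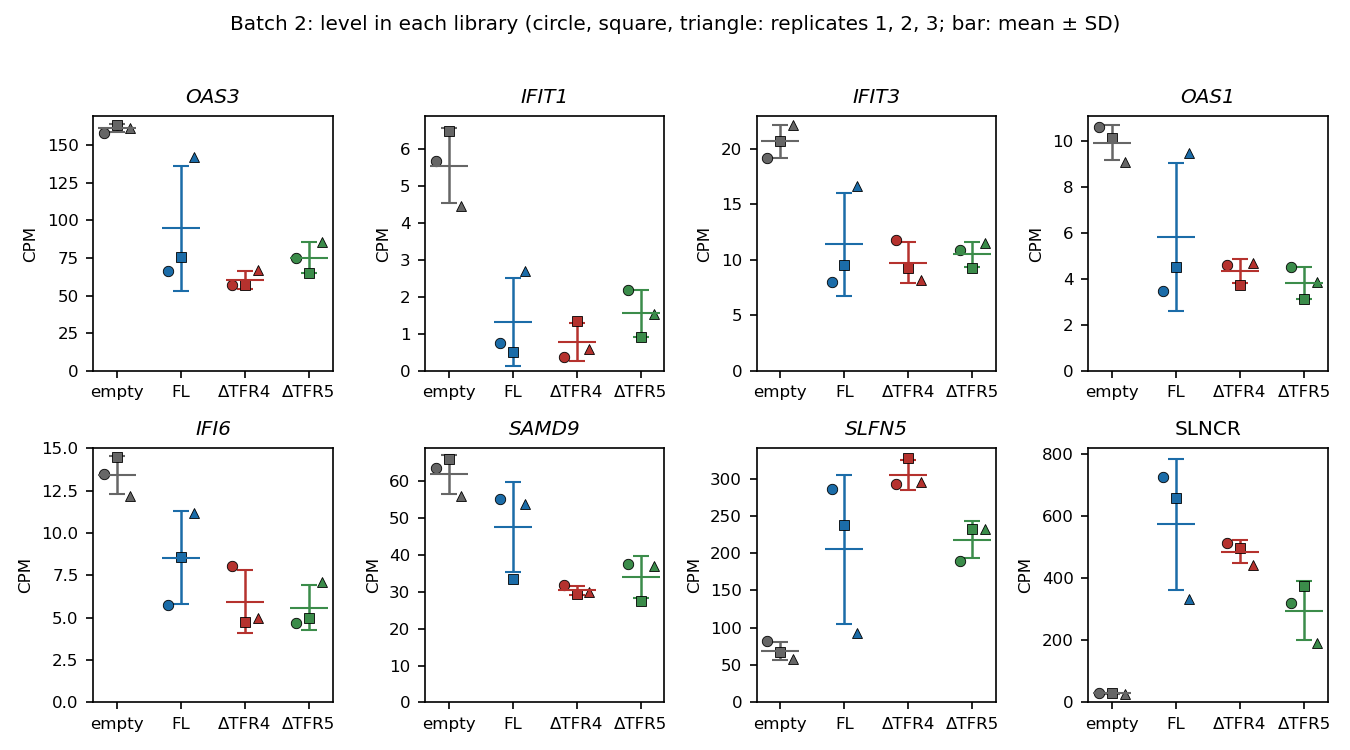
CPM in each library of batch 2 for 7 members and for SLNCR, with circles, squares and triangles for replicates 1, 2 and 3 and bars for the mean ± SD (n = 3). For OAS3 the deletion libraries sit at 56.7 to 85.5 CPM and the empty vector libraries at 158 to 163, with FL replicate 3 at 142. The SLNCR panel shows FL replicate 3 at 334 CPM and ΔTFR5 replicate 3 at 192.

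FL against empty vector in batch 2 asks what the intact RNA does. By the same test 1 of 44 members rose and 0 fell, against 1.03% and 0.128% of all genes. An unadjusted p under 0.05 was held by 14 members, and by 4933 of all 18763 genes. DESeq2 called 2 higher and 5 lower of 46, against 3.47% and 1.43% of 39751 genes. That total includes genes below edgeR's low-count filter and genes given no adjusted p. Shares by the 2 tools are therefore not on one scale. SLFN5 rose by 1.57 ± 0.30 (adjusted p = 0.0425), or 2.98-fold, with 286, 238 and 93.1 CPM in FL against 58.1 to 82.1 with empty vector. The members' median was -0.15, against 0.02 over all genes.

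The FL libraries differed among themselves. OAS3 lay at 66.2, 75.5 and 142 CPM, IFIT3 at 8.05, 9.52 and 16.7, OAS1 at 3.45, 4.5 and 9.47 and IFIT1 at 0.751, 0.517 and 2.69 in FL replicates 1, 2 and 3. In each of these genes replicate 3 was nearest to empty vector. It was also the FL library with the least SLNCR, 334 CPM, though ΔTFR5 replicate 3 held 192 CPM of SLNCR with OAS3 at 85.5 and IFIT3 at 11.5. The melanocyte factor MITF lay at 198, 127 and 80.3 CPM in FL replicates 1, 2 and 3, against 75.2 to 80.6 with empty vector. The part of SLNCR level and of MITF in these values was not tested. IFIT1 had a log2 fold change of -2.06 ± 0.55 over all FL libraries and did not pass (adjusted p = 0.0669), nor did IFIT3 (-0.85 ± 0.24, adjusted p = 0.0714), OAS3 (-0.76 ± 0.23, 0.08) or IFI27 (-1.79 ± 0.86, 0.202).

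Without FL replicate 3, 11 members fell and 5 rose, against 13.8% and 17% of 19409 genes tested. The 11 were IFIT1, IFIT2, IFIT3, OAS1, OAS3, OASL, IFI6, IFI27, IFI44, MX1 and IRF7. IFIT1 then fell by 3.12 ± 0.49 (adjusted p = 0.000604), OAS3 fell by 1.19 ± 0.13 (7.66e-05) and IFIT3 fell by 1.24 ± 0.18 (0.000344). The 5 were SLFN5, which rose by 1.91 ± 0.15 (adjusted p = 1.35e-05), with TRIM22, DDX60, DTX3L and ISG20. Leaving out any other single library of the comparison gave 0 members called by edgeR, where 0.031 to 0.26% of all genes were. An unadjusted p under 0.05 was held by 7 to 15 members in these fits, and by 3077 to 4205 of all genes tested. With FL replicates 1 and 3 both left out, 1 FL library remains and is assumed to vary like the other groups. Its own spread cannot be measured, so members called are not counted from that fit either. The members' median was then -0.23, against -0.03 over all genes, and OAS3 was lower by 1.09 ± 0.14.

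The deletions against FL ask whether a region changes the effect of the RNA. With ΔTFR4, 3 of 44 members fell and 0 rose, against 2.47% and 1.9% of all genes. An unadjusted p under 0.05 was held by 12 members, and by 4313 of all 18763 genes. DESeq2 called 6 lower and 1 higher of 46, against 2.82% and 1.88% of its 39751 genes. With ΔTFR5, 1 fell and 0 rose, against 0.554% and 0.826%. Here 14 members had an unadjusted p under 0.05, as did 3897 of all genes. DESeq2 called 6 lower and 0 higher of 46 with ΔTFR5, against 2.04% and 1.48% of its 39751 genes. TRIM22 was the member called in both. TRIM22 lay at 12.1, 9.45 and 11.2 CPM in FL, above the 6.41, 7.16 and 8.02 of empty vector, and at 5.72, 4.61 and 4.94 with ΔTFR4 and 5.13, 5.27 and 5.5 with ΔTFR5. TRIM22 fell by 1.10 ± 0.16 (adjusted p = 0.00466) and by 1.04 ± 0.16 (0.0121) against FL. Its 3 FL libraries lay together, FL replicate 3 included, unlike those of OAS3 and SLFN5. FL against empty vector did not pass for TRIM22 (0.60 ± 0.16, adjusted p = 0.0662). The ΔTFR4 call held in every fit that left out 1 library, and the ΔTFR5 call was lost without ΔTFR5 replicate 1 or 2.

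With ΔTFR4 against FL, OAS2 fell by 0.76 ± 0.19 (adjusted p = 0.0419), from 32.2, 18 and 28.1 CPM to 14.2, 15.9 and 16. HERC5 fell by 1.01 ± 0.26 (adjusted p = 0.0463), from 2.64, 2.25 and 3.06 CPM to 1.55, 1.25 and 1.15. Leaving out any of the ΔTFR4 libraries ended both calls, and leaving out FL replicate 3 ended that of HERC5. Leaving out FL replicate 1 gave 5 members, or 11.4%, where 8.88% of all genes were called, and leaving out FL replicate 2 gave 8, or 18.2%, where 8.11% were. For ΔTFR5, leaving out FL replicate 3 gave 6, or 13.6%, below the 17.9% of all genes. Leaving out FL replicate 2 gave 2, or 4.55%, against 0.936%. Without FL replicate 3 the ΔTFR5 values turned to 0.09 ± 0.13 for OAS3 and -0.27 ± 0.15 for SLFN5 (adjusted p = 0.678 and 0.238). SLFN5 differed from FL by 0.57 ± 0.29 with ΔTFR4 (adjusted p = 0.258) and by 0.08 ± 0.29 with ΔTFR5 (0.897), and OAS3 by -0.65 ± 0.23 (0.112) and -0.33 ± 0.23 (0.423). The largest values were in scarce genes: RSAD2 had -1.61 ± 0.82 and -2.08 ± 0.85 (adjusted p = 0.259 and 0.188) and IFI27 -1.39 ± 1.09 with ΔTFR4 (0.47). XAF1 had 28, 5 and 36 counts in FL and did not pass against either deletion (adjusted p = 0.399 and 0.0819).

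ΔTFR5 against ΔTFR4 called 0 of 44 members by edgeR and 0 of 46 by DESeq2, against 0.453% of 18763 genes and 0.548% of 39751. By edgeR 1 member had an unadjusted p under 0.05, as did 1820 of all 18763 genes. The members' median was -0.01. IFIT1 differed by 0.98 ± 0.59 (adjusted p = 0.612), IFI27 by 0.96 ± 1.16 (0.838) and XAF1 did not pass (0.473).

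In batch 1 the differences were small. In FL against empty vector 5 of 40 tested members rose and 2 fell, against 11.4% and 11.3% of all 14310 genes, and the members' median was 0.02. SAMD9 went from 52.8, 55.3 and 65.7 CPM to 77.6, 63.8 and 89.6 and rose by 0.41 ± 0.11 (adjusted p = 0.018), with 1 FL library below the highest control. DDX60 rose by 0.37 ± 0.13 (0.0305), from 9.8, 9.88 and 10.2 CPM to 11.2, 13.3 and 14.5. SLFN5 rose by 0.31 ± 0.08 (0.00709), from 43.5, 41.6 and 45 CPM to 52.4, 51.6 and 58. IFIT5 rose by 0.25 ± 0.07 (0.0103) and PARP14 by 0.21 ± 0.06 (0.0133). IRF1, a transcription factor of the interferon response, lay at 18.1, 19.9 and 17.3 CPM with empty vector and at 14.8, 15.2 and 14.8 in FL, and fell by 0.30 ± 0.11 (adjusted p = 0.0393). IFITM3 fell by 0.16 ± 0.05 (0.0272), from 129, 120 and 121 CPM to 106, 112 and 113.

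The genes of the largest falls in batch 2 showed other values here. IFIT1 lay at 3.78, 4.19 and 3.41 CPM with empty vector and at 4.9, 5.04 and 4.53 in FL, and OAS3 at 119 to 121 and 109 to 113. Neither passed. The largest log2 fold changes were in members that did not pass: -0.61 ± 0.23 for IRF7 (adjusted p = 0.0539), -0.53 ± 0.31 for DHX58 (0.222) and -0.48 ± 0.18 for OAS1 (0.0553).

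GC content moved with these differences. The FL libraries of batch 1 had GC trends of -0.42 to -0.12, and the other 9 libraries of 0.01 to 0.23. Across the 40 members the log2 fold change of FL against empty vector went with the GC content of the transcript at a Spearman rho of -0.79, and across 13475 genes at -0.68. This is a description over genes that share the same libraries. The 5 members that rose had 36 to 42.4% GC, and the 2 that fell 52.6 and 56.9%. With each library's GC trend removed 0 of 40 members passed edgeR's test, where 1.94% of all genes did. An unadjusted p under 0.05 was held by 7 members, and by 2315 of all 14310 genes. SAMD9 then had 0.19 ± 0.08 (adjusted p = 0.2), SLFN5 0.15 ± 0.07 (0.296) and IFITM3 had an adjusted p of 0.996. Without GC removal the count was 1, or 2.5%, without empty vector replicate 1, where 8.17% of all genes were called, and 3, or 7.5%, without FL replicate 3, where 11.9% were.

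**Figure D4:**
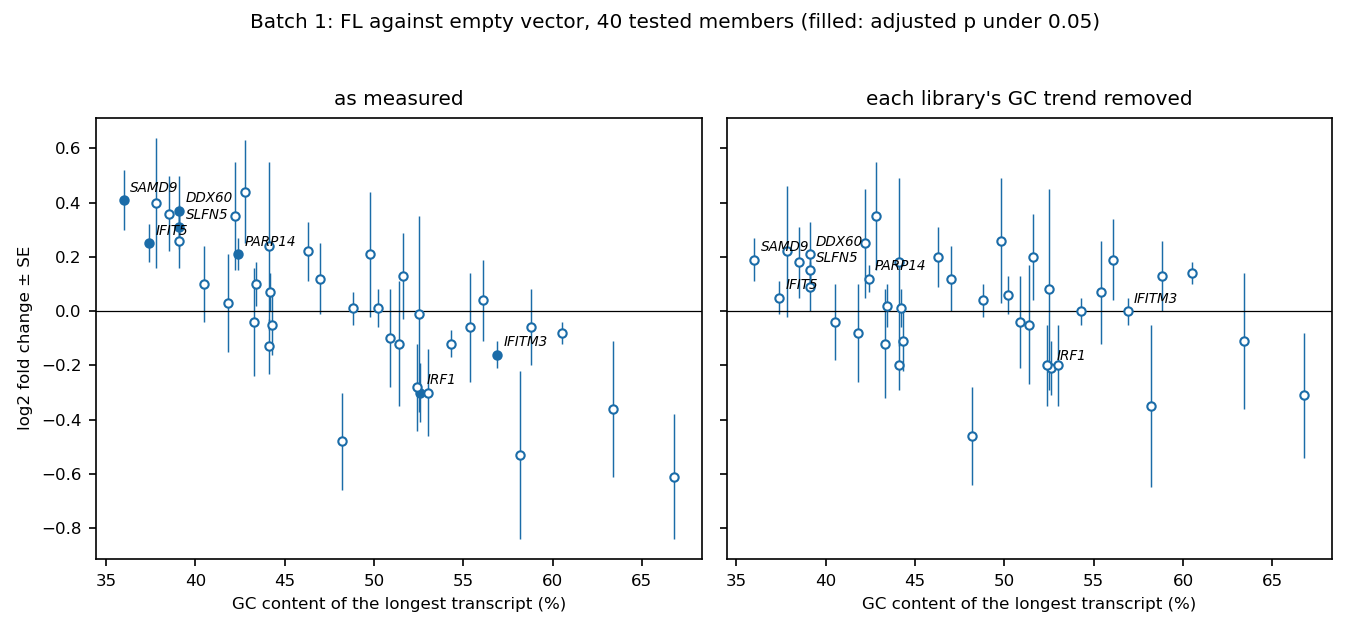
Log2 fold change ± SE of FL against empty vector in batch 1 for the 40 tested members against the GC content of the longest transcript, as measured (left) and after each library's GC trend was removed (right), with filled points at an adjusted p under 0.05 and names for the 7 called as measured. The left panel slopes down from SAMD9 at 36% GC, and the right panel has 0 filled points.

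Among the deletions of batch 1 few members passed. With ΔTFR1 against FL 1 rose and 2 fell, against 4.4% and 5.66% of all genes. IRF1 rose by 0.37 ± 0.11 (adjusted p = 0.0295), to 21.6, 17.8 and 18.5 CPM, and IFIT5 fell by 0.23 ± 0.07 (0.0315) and PARP14 fell by 0.28 ± 0.06 (0.0101). IFIT5 lay at 71.9, 77.6 and 88 CPM in FL and at 64.3, 69.5 and 68.2 with ΔTFR1, and PARP14 at 93.8, 89.5 and 102 and at 78.9, 81.5 and 74.8. Leaving out ΔTFR1 replicate 1 gave 0 members called by edgeR, where 0.152% of all genes were. Leaving out FL replicate 3 gave 1, or 2.5%, against 1.95%, and leaving out FL replicate 2 gave 5, or 12.5%, against 19%. These 3 genes share their FL libraries with the comparison above. IRF7 (0.68 ± 0.23, adjusted p = 0.056), DHX58 (0.57 ± 0.31, 0.233) and IFIT1 (-0.43 ± 0.21, 0.177) had the largest values and did not pass.

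With ΔTFR2 against FL 1 rose and 0 fell, against 4.86% and 5.15% of all genes. An unadjusted p under 0.05 was held by 9 members, and by 3884 of all 14310 genes. DESeq2 called 0 in either direction, where 5.98% of its 22490 genes were called. That tool gave no outcome for OAS1, so this 0 does not mean that OAS1 failed its test. OAS1 rose by 0.72 ± 0.18 (adjusted p = 0.0148), from 5.08, 4.02 and 4.64 CPM to 8.43, 6.87 and 7.43. With empty vector OAS1 lay at 6.01, 5.58 and 7.57 CPM. HERC5 (-0.47 ± 0.32, adjusted p = 0.367) and ISG15 (0.45 ± 0.25, 0.266) came next. With GC trends removed 0 of 40 members passed against FL with ΔTFR1 or ΔTFR2, where 0.196% and 0.0419% of all genes did. In each comparison 4 members had an unadjusted p under 0.05, as did 1896 and 1872 of all 14310 genes. Leaving out FL replicate 2 gave 5 members, or 12.5%, where 18.7% of all genes were called, and leaving out FL replicate 1 gave 2, or 5%, where 5.32% were. OAS1 lost its call without FL replicate 3 or without ΔTFR2 replicate 1 or 2.

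ΔTFR1 and ΔTFR2 against empty vector called 0 of 40 members each by edgeR and 0 of 45 by DESeq2. EdgeR called 0.00699% and 0.014% of all genes there, and DESeq2 0.00445% and 0.00889% of its 22490 genes. An unadjusted p under 0.05 was held by 3 and 2 members, and by 589 and 597 of all 14310 genes. ΔTFR2 against ΔTFR1 called 0 members by both tools, and 0% of all genes. There 3 members had an unadjusted p under 0.05, as did 551 of all genes. The largest values were 0.56 ± 0.24 for IFI44L, 0.43 ± 0.23 for CMPK2 and 0.37 ± 0.20 for IFIT2 with ΔTFR1 (adjusted p = 0.992 each). With ΔTFR2 they were 0.38 ± 0.35 for IFITM1, -0.35 ± 0.31 for DHX58 and 0.34 ± 0.20 for IFIT2 (0.994 each). Between the deletions they were 0.57 ± 0.18 for OAS1, -0.49 ± 0.33 for HERC5 and -0.40 ± 0.31 for DHX58 (1 each). IFI35, IFI44 and IFI6 passed in no comparison of batch 1, at 9.02 to 12.5, 19.7 to 28.7 and 7.35 to 9.92 CPM, as were MX2 at 65.9 to 76.6, SP110 at 18.6 to 27.8 and LGALS3BP at 433 to 471.

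A further 60 genes of the pathway outside the members were read alongside, of which 44 were tested in batch 1 and 47 in batch 2. The ligands were at the edge of detection: none of the 9 interferon genes listed was tested, and IFNG had 0 counts in all 24 libraries. IFNB1 had at most 2 counts per library in batch 1. In batch 2 IFNB1 had 43 counts over the 12 libraries, with 0.961 CPM in FL replicate 1 against at most 0.176 in any other. IFNL1 lay at 0.436 and 0.529 CPM in empty vector replicates 1 and 2 and at 0 in replicate 3, against at most 0.0398 in the other groups. In that replicate some members were as high as in the other controls (OAS3 at 161 CPM, IFIT3 at 22.2) and others lower (IFIT2 at 7.68 against 11 and 9.94, IFI44L at 2.61 against 5.04 and 4.94). The part of IFNL1 was not tested. The DNA sensors CGAS and ZBP1 held at most 0.498 and 0.33 CPM.

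In FL against empty vector of batch 1, 8 of the 44 rose and 5 fell, where 11.4% and 11.3% of all genes did, so the count of falls is at the level of all genes. TLR3, a sensor of double-stranded RNA, rose by 0.45 ± 0.14 (adjusted p = 0.02), the receptor chain IFNAR1 by 0.30 ± 0.07 (0.00471), the DNA sensor IFI16 by 0.26 ± 0.07 (0.0102) and EIF2AK2, the kinase PKR, by 0.24 ± 0.05 (0.00275). IRF3, which starts interferon transcription, fell by 0.40 ± 0.10 (0.00473), the receptor kinase TYK2 fell by 0.26 ± 0.07 (0.00692) and the adaptor MAVS fell by 0.13 ± 0.04 (0.0252). SP100, PTPN2, PIAS1 and TBK1 also rose, by 0.20 to 0.24, and PML and TRIM14 fell. The GC trends above apply to these genes too, and their values with GC trends removed are not given here. Of all genes 22.7% were called as measured and 1.94% with GC trends removed. With ΔTFR1 against FL IRF3 and TYK2 rose and IFNAR1, EIF2AK2 and PARP12 fell, and with ΔTFR2 TYK2 rose and EIF2AK2 fell. In batch 2 edgeR called 0 of 47 in FL against empty vector, where 1.16% of all genes were called. Of the 47, 13 had an unadjusted p under 0.05, as did 4933 of all 18763 genes. DESeq2 called 2 higher and 4 lower of 59, where 3.47% and 1.43% of its 39751 genes were. TRIM5, a capsid-binding restriction factor, fell by 0.64 ± 0.13 with ΔTFR4 against FL (adjusted p = 0.0161), and TRIM25, the ligase that activates RIG-I, rose by 0.68 ± 0.14 with ΔTFR5 (0.0408).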

How the data were processed

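RNA of 24 A375 libraries (8 groups of 3) was read on an Illumina HiSeq after rRNA depletion. The authors deposited raw counts per gene symbol for batch 1 and estimated counts from salmon for batch 2, per the file headers. Tools listed in the submitters' processing notes are STAR 2.7.3a, Subread 1.6.2 with featureCounts, cutadapt 2.5 and FastQC 0.11.5. The same notes list GRCh38 and GRCm38 without saying what each served for. Salmon's version and the strand used in counting were not given in the sources used here. The estimated counts were rounded, and batches were fitted apart with edgeR 4.0.16 in R 4.3.3. The fit used filterByExpr (minimum count 10, total 15), TMM, robust quasi-likelihood over 12 libraries and Benjamini-Hochberg adjustment over 14310 or 18763 genes. The common biological coefficient of variation was 0.05 and 0.212. The SE was taken as the size of the log2 fold change over the root of its F statistic. CPM use TMM library sizes. The fit was tested on simulated data. GC content and length come from the longest GENCODE v29 transcript, and a library's GC trend (loess, span 0.5) is its deviation across GC. Replicates differed by more than sampling noise (chi-square per gene 1.5 to 6.98 and 8.23 to 227). Alternatives were DESeq2 1.42.0, RLE scaling, no filter, 2 groups alone, a replicate block, GC removal and leaving out libraries. The members and lists were chosen with earlier results of these data known. Members called in a comparison and the 3 with the largest log2 fold change are named with statistics. Other pathway genes are so named where called in a comparison with FL or near 0. Some genes of the lists are not reported here.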

Additional observations from a re-analysis of the deposited data

Results flagged for a closer look

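In FL against empty vector 8 members lay on one side of their empty vector mean in all 3 FL libraries of batch 1 and on the opposite side in all 3 of batch 2. The share of all genes that do the same is not given here, so the 8 are described as single genes. The difference between the batches was not tested, and the batches were quantified in different ways. Batch 2 minus batch 1 was -2.41 for IFIT1 on the log2 scale (0.35 in batch 1 and -2.06 in batch 2) and -1.21 for IFIT2 (0.44 and -0.77). It was -0.79 for IFI44 (0.26 and -0.54) and -0.79 for SAMD9 (0.41 and -0.38), and SAMD9 passed in batch 1. It was -0.59 for CMPK2, -0.28 for DDX58, 0.25 for IFITM3 and 0.69 for ISG20. IFITM3 also passed in batch 1. With GC trends removed, batch 1 gave -0.04 for DDX58, which is on the same side as batch 2, and -0.00 for IFITM3, and 0 of the 8 passed there (edgeR; SAMD9 had an unadjusted p of 0.0201). None of the 8 passed in FL against empty vector in batch 2.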

How the results depend on the processing

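The number of members called moved by over 1.5 times under these alternatives, and the cause was not tested. Percentages in brackets are the share of all genes called under the same setting, which often moved as well. With DESeq2 and with no filter that share is over 22490 genes in batch 1 and 39751 in batch 2. Those totals include genes below the low-count filter, so these shares are not on the scale of the others. In batch 1, FL against empty vector (7 members, 22.7%) gave 4 (15%) with the 2 groups alone and 4 (11.9%) with DESeq2. It gave 0 (1.94%) with GC trends removed, 0 (3.31%) with the replicate block and GC removal, and 1 to 9 (8.17 to 28.1%) without 1 replicate. ΔTFR1 against FL (3, 10.1%) gave 1 (2.18%) with the 2 groups alone, 0 (0.196%) with GC trends removed and 5 (8.37%) with no low-count filter. It gave 5 (15.6%) with the replicate block, 0 (0.95%) with block and GC removal, and 0 to 5 (0.152 to 19%) without 1 replicate. ΔTFR2 against FL (1, 10%) gave 0 (5.98%) with DESeq2, which had no outcome for OAS1. The comparison gave 0 (0.0419%) with GC trends removed and 3 (8.43%) with no filter. It gave 3 (15.2%) with the replicate block and 0 to 5 (0 to 18.7%) without 1 replicate. In batch 2, FL against empty vector (1, 1.16%) gave 0 (0.0113%) with the 2 groups alone, 7 (4.9%) with DESeq2 and 2 (3.91%) with GC trends removed. It gave 2 (2.13%) with the replicate block, 7 (9%) with block and GC removal, and 0 to 16 (0.031 to 30.7%) without 1 replicate. ΔTFR4 against FL (3, 4.36%) gave 0 (0.189%) with the 2 groups alone, 7 (4.7%) with DESeq2 and 7 (7.32%) with GC trends removed. It gave 1 (4.47%) with the replicate block, 5 (7.71%) with block and GC removal, and 1 to 8 (0.406 to 11.4%) without 1 replicate. ΔTFR5 against FL (1, 1.38%) gave 0 (0.00565%) with the 2 groups alone, 6 (3.52%) with DESeq2 and 4 (4.74%) with GC trends removed. It gave 2 (4.06%) with block and GC removal, and 0 to 6 (0.098 to 17.9%) without 1 replicate. ΔTFR5 against empty vector (13, 10.2%) gave 23 (32%) with the 2 groups alone and 3 to 10 (2.27 to 8.96%) without 1 replicate. ΔTFR5 against ΔTFR4 (0, 0.453%) gave 1 (6.33%) with the 2 groups alone.

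2 alternatives were chosen after seeing the data. Each leaves 1 library in a group, which gives no spread of its own. Without FL replicates 1 and 3, the members' median was -0.23 in FL against empty vector and -0.12 in ΔTFR4 against FL. Without empty vector replicates 1 and 2, the medians were -0.06, -0.30 and -0.33 for FL, ΔTFR4 and ΔTFR5 against empty vector. Over all comparisons, 98 alternative counts stayed within 1.5 times and 64 did not. Among the values of members called or with the 3 largest changes, 2 turned their sign: XAF1 in ΔTFR4 against FL had 0.58 without FL replicates 1 and 3, and IFI27 in ΔTFR5 against ΔTFR4 had -0.72 without ΔTFR5 replicate 1. Other printed values that did not pass turned too. Without FL replicate 3, ΔTFR5 against FL had 0.09 for OAS3 and -0.27 for SLFN5. With GC trends removed, DDX58 in FL against empty vector of batch 1 had -0.04. Libraries with the same replicate number were no pairs by the labels, and their deviations correlated at -0.13 to 0.18 in batch 1 and -0.14 to 0.20 in batch 2. Depth limits IFI27, XAF1, RSAD2, EPSTI1, BST2 and CXCL10.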

Other observations

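Outside the members, the pathway genes called against empty vector in the deletions of batch 2 are named here after their values were seen. With ΔTFR4 6 of 47 tested fell and 2 rose, where 11.4% and 12.5% of all genes did. With ΔTFR5 2 fell and 1 rose, where 4.68% and 5.48% of all genes did. These counts are near or below the shares over all genes, so the values describe single genes. AIM2, a sensor of cytosolic DNA, lay at 1.74, 2.75 and 2.8 CPM with empty vector, at 0.541, 0.529 and 0.744 with ΔTFR4 and at 0.994, 1.03 and 1.24 with ΔTFR5. It fell by 2.00 ± 0.30 (adjusted p = 0.00116, edgeR) and fell by 1.15 ± 0.28 (0.0236). ADAR, which edits double-stranded RNA, lay at 405, 407 and 410 CPM with empty vector and at 293, 289 and 296 with ΔTFR4, and fell by 0.48 ± 0.10 (0.00587). TRIM5 fell by 0.61 ± 0.13 (0.00508) and fell by 0.44 ± 0.13 (0.0419). APOL1, PML and TRIM14 fell with ΔTFR4. IFI16 went from 93.2, 91.9 and 86.5 CPM to 175, 171 and 149 and rose by 0.87 ± 0.18 (0.00576), with FL replicate 3 at 86.8 and FL replicates 1 and 2 at 166 and 142. IL10RB, a chain of the interferon lambda receptor, rose by 0.92 ± 0.16 (0.00199) and by 0.69 ± 0.16 (0.0166). TNFSF10, the death ligand TRAIL, lay at 0.747 and 1.73 CPM in empty vector replicates 1 and 2, at 0.0757 in replicate 3 and at most 0.187 elsewhere in the batch.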
